A study of Mus musculus with 6 samples.

Results

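The nuclear-encoded subunits of respiratory chain complexes III and IV and of complex V, the ATP synthase, were compared between mandibular-derived and femur-derived monocytes. Members were taken by name from the gene table, as every gene whose symbol starts with Uqcr, with Cox4 to Cox8 followed by an a, b or c, or with Atp5, without the pseudogenes whose symbols end in -ps, with or without a number. The rule found 43 members among 57010 genes, 8 of complex III, 17 of complex IV and 18 of complex V. Both groups were monocytes from the bone marrow of mice labelled C57BL/6 (substrain J in the study's methods), 1 year of age, 3 libraries from the femur (S13, S15 and S18) and 3 from the mandible (S16, S19 and S23). The monocytes were untouched cells from a magnetic selection in which other marrow cells were held on a column, so the flow through can still hold cells that the antibodies missed. The study used male and female mice. The labels give neither sex nor animal nor batch for any library, and do not say whether the 3 libraries of a site came from separate animals, so the p-values measure the spread between these libraries, which may be technical. Bulk RNA cannot tell fewer cells of a type from less RNA per cell.

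Complex III passes electrons from ubiquinol to cytochrome c, complex IV passes them on to oxygen, and both pump protons across the inner mitochondrial membrane. Complex V lets the protons flow back and uses them to make ATP. Each complex joins a few subunits made in the mitochondrion with many nuclear ones, which range from large catalytic proteins to very small proteins with a single membrane helix, and several nuclear subunits of complex IV exist as a widely expressed form and a form of heart and skeletal muscle. Osteoclasts, the cells that monocytes of the marrow can become, are rich in mitochondria.

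The libraries held 15718782 to 25371474 counts on genes. The monocyte markers were present in both groups, with a summed level of 1158 to 1878 counts per 1000000 (CPM, scaled by edgeR's trimmed mean of M values, TMM) in the femur against 1053 to 1952 CPM in the mandible, and 0 of these 7 genes were called by edgeR, DESeq2 or limma-voom (1 was higher at an unadjusted p under 0.05). Markers of several other cell types were unequal. The 10 skeletal muscle markers summed to 3.80 to 23.4 CPM in the femur but 1546 to 5263 CPM in the mandible, the 6 osteoblast and mesenchymal markers to 100.2 to 140.1 and 7442 to 11420 CPM, and the 4 tooth epithelium markers to 0.221 to 1.52 and 5716 to 11220 CPM. The 5 megakaryocyte markers summed to 528.6 to 849.2 CPM in the femur and 72.0 to 104.5 CPM in the mandible. The 6 neutrophil markers spanned 2275 to 18250 CPM in the femur and 2569 to 7861 CPM in the mandible, ranges that overlapped. All 6 had a log2 fold change below 0, with a median of -1.46, and 3 were lower at an unadjusted p under 0.05. S100a8 was called lower by edgeR (log2 fold change -2.77, adjusted p = 0.02845), DESeq2 and limma-voom, and DESeq2 called Camp lower as well. The 5 erythroid markers, all with a log2 fold change below 0, summed to 135.5 to 970.9 CPM in the femur against 48.6 to 99.8 CPM in the mandible, and edgeR called Hba-a1 and Hbb-bs lower (DESeq2 and limma-voom Hba-a1 alone). The adipocyte markers summed to 5.575 to 13.48 CPM in the femur against 1.201 to 3.203 CPM in the mandible, without overlap. The sperm and testis markers summed to 2.396 to 9.189 against 0 to 0.9507 CPM, also without overlap. In each of these lists 1 gene was tested, Adipoq and Ldhc (log2 fold change -3.556). DESeq2 called both lower, and edgeR and limma-voom called neither. The B cell, T and NK cell, and endothelial lists had overlapping ranges and 0 calls by edgeR, DESeq2 or limma-voom. The B cell markers summed to 10.1 to 20.0 CPM in the femur against 8.87 to 14.2 CPM in the mandible. The T and NK cell markers summed to 29.5 to 116.8 against 26.5 to 63.8 CPM, and the endothelial markers to 42.4 to 54.1 against 33.7 to 48.8 CPM. The part of all these cells in the members' values was not tested. Xist, made from the inactive X chromosome of female cells, reached 1441 CPM in S23, a mandible library, with 0.553 CPM or less elsewhere. By this gene sex was not balanced between the sites. The part of sex in the values of S23 cannot be told apart from anything else particular to that library.

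Of the 43 members, 39 had enough counts to be tested. The subunits of the 3 complexes were on the whole lower in mandibular-derived than in femur-derived monocytes, and the muscle forms Cox6a2 and Cox7a1 were higher. By edgeR's quasi-likelihood test on all 18114 genes that passed the filter, with Benjamini-Hochberg adjustment and a fold change of at least 2, 6 members fell in the mandible (Cox7b, Cox7a2, Atp5k, Atp5mpl, Atp5e and Atp5g3), where 1.3% of all tested genes were called lower. Another 2 members rose (Cox6a2 and Cox7a1), where 3.88% of all tested genes were called higher, and 31 members did not pass. The log2 fold change, mandible over femur, was below 0 in 36 of 39 members and in 52.2% of all tested genes. Its median was -0.91 over the members and -0.04 over all tested genes. In 22 of the 39 members every mandible library was below every femur library, against 11.5% of all tested genes, in 2 members every mandible library was above (12.7% of all genes), and in 15 members the groups overlapped. At an unadjusted p under 0.05, 22 members were lower and 2 higher, against 7.25% and 9.18% of all tested genes. The members took 0.347 to 0.511% of all counts in the femur libraries and 0.268 to 0.314% in the mandible libraries, and these ranges did not overlap.

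**Figure D1:**
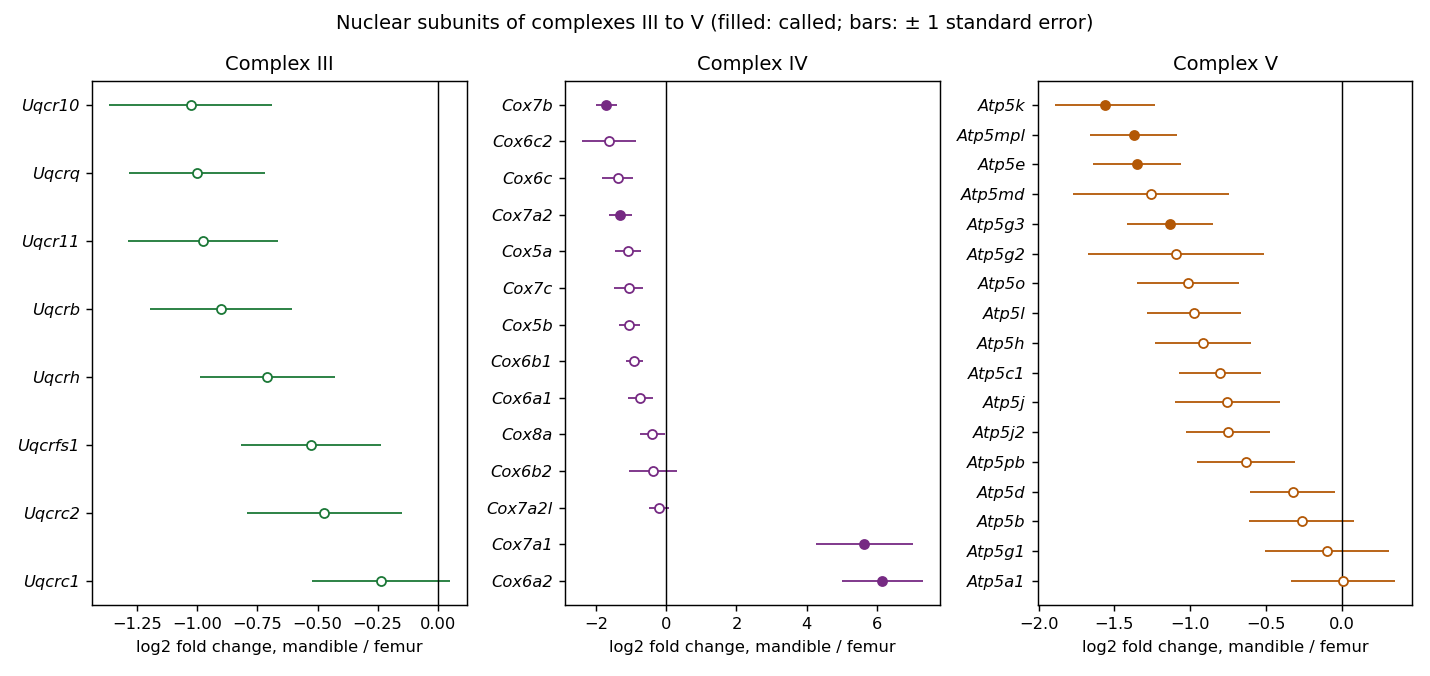
Log2 fold change of mandible over femur (x axis, without unit, a separate scale in each panel) for the 39 tested subunits of complexes III, IV and V (y axis), with bars of 1 standard error from edgeR's fit to 3 and 3 libraries. Filled points are called members, and 36 of 39 points lie left of 0, while Cox7a1 and Cox6a2 lie far to the right.

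These counts rest on few libraries. With femur library S15 left out 16 members were called lower, with mandible library S19 left out 0 (20 at an unadjusted p under 0.05), with femur libraries S13 or S18 left out 1 or 3, with mandible library S16 left out 2 and with S23 left out 7. The share of all tested genes called lower also moved, from 1.3% with all libraries to 3.24% without S15 and 0.29% without S19. It was 0.31% without S13, 0.47% without S18, 0.56% without S16 and 0.83% without S23. Of the 6 members, Cox7b lost its call only without S19, Atp5k without S13 or S19, and Atp5mpl without S13, S16 or S19, whereas Atp5e and Cox7a2 kept theirs only without S15 or S23 and Atp5g3 only without S15. Femur library S15 was the femur library closest to the mandible in all 3 complexes. Expressed as the median over members of the log2 CPM minus each member's own mean over the 6 libraries, complex III was at 0.59, -0.05 and 0.48 in femur libraries S13, S15 and S18, and at -0.40, -0.36 and -0.27 in mandible libraries S16, S19 and S23. Complex IV, without Cox6a2 and Cox7a1, was at 0.71, 0.17 and 0.63 in the femur and at -0.37, -0.37 and -0.49 in the mandible. Complex V was at 0.89, -0.06 and 0.53 in the femur and at -0.57, -0.30 and -0.34 in the mandible. In each complex the mandible libraries stood together below all femur libraries, and the femur libraries were spread more widely. The neutrophil markers were lowest among the femur libraries in the same library, with 18250, 2275 and 14300 CPM in S13, S15 and S18. So were the erythroid, megakaryocyte, B cell, T and NK cell, endothelial, adipocyte, and sperm and testis markers. The monocyte markers were lowest in S13, and the muscle, osteoblast and mesenchymal, and tooth epithelium markers were highest in S15. The part of these cells in the spread was not tested.

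**Figure D2:**
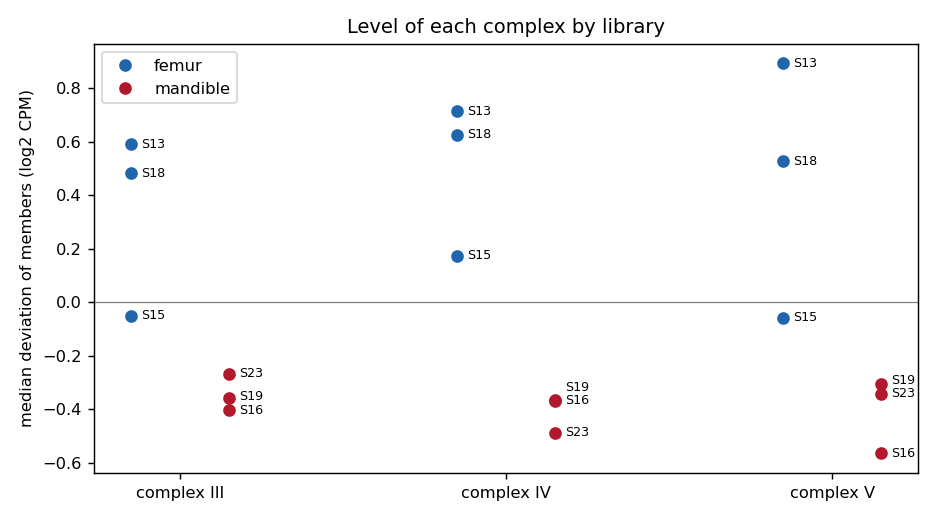
Median deviation of the members of each complex from their own mean over the 6 libraries (y axis, log2 CPM), 1 point for each library, for 8 members of complex III, 12 of complex IV and 17 of complex V. The 3 mandible points lie below the 3 femur points in every complex, with femur library S15 nearest to them.

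In complex III all 8 members were below 0, 0 were called by edgeR (5 were lower at an unadjusted p under 0.05) or DESeq2, limma-voom called Uqcrq, and the median log2 fold change was -0.81. The 8 members are given by 2 kinds of subunit, and no test was made between these kinds. The 5 supernumerary subunits, small proteins that carry no redox centre, had a median of -0.98, and in 5 of 5 the libraries of the sites did not overlap, where 11.5% of all tested genes had every mandible library below every femur library. The 3 core subunits tested, Uqcrc1 and Uqcrc2 on the matrix side and the Rieske iron-sulfur protein Uqcrfs1, had a median of -0.47, and in 3 of 3 the libraries overlapped. Overlap was also the usual state of all tested genes, of which 11.5% had every mandible library below and 12.7% every mandible library above the femur libraries. Uqcr10, a small membrane subunit, had the lowest log2 fold change of the complex. Its levels were 40.4, 23.5 and 28.8 CPM in the femur against 15.6, 11.8 and 18.1 CPM in the mandible, a log2 fold change of -1.03 ± 0.34 (standard error) that did not pass edgeR's quasi-likelihood test after adjustment (adjusted p = 0.1283). All 3 mandible libraries were below the lowest femur library. Uqcrc1 had the highest log2 fold change of the complex, with 164.3, 104.9 and 177.8 CPM in the femur against 129.6, 149.4 and 100.2 CPM in the mandible and a log2 fold change of -0.24 ± 0.29 (edgeR adjusted p = 0.7913). Its mandible libraries lay within or just under the femur range.

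Per kilobase of the length that the table gives for each gene, the highest members of complex III were Uqcrb, which helps to form the ubiquinone pocket, Uqcrh, the hinge protein beside cytochrome c1, and Uqcrfs1. Uqcrb was at 104.0 ± 33.8 CPM in the femur against 55.6 ± 10.2 CPM in the mandible (SD, n = 3 each), with a log2 fold change of -0.90 ± 0.30. Uqcrh was at 126.6 ± 36.4 and 77.5 ± 10.6 CPM, with a log2 fold change of -0.71 ± 0.28. Uqcrfs1 was at 103.3 ± 30.2 and 71.6 ± 14.1 CPM, with a log2 fold change of -0.53 ± 0.29. None of these members passed edgeR's test, with adjusted p-values of 0.1259, 0.2167 and 0.4329, and only Uqcrfs1 had overlapping groups. The remaining members were Uqcrq and Uqcr11, both small subunits, with log2 fold changes of -1.0 and -0.98, and the core subunit Uqcrc2 with -0.47. Per kilobase of the coding transcript, in place of the table's length, the order of levels changed, and Uqcrq led complex III with a mean of 211.2 CPM per kilobase, Cox6c led complex IV with 427.9 and Atp5h led complex V with 441.2.

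In complex IV 14 of 17 members were tested, and by edgeR 2 fell, 2 rose and 10 did not pass. DESeq2 called Cox5b and Cox6c lower as well, limma-voom called Cox7b and Cox7a2 lower and neither muscle form, and the median log2 fold change was -0.98, or -1.07 without Cox6a2 and Cox7a1. Cox7b, a small subunit with a single membrane helix encoded on the X chromosome, fell the most of all members. Its levels were 229.1, 147.9 and 134.7 CPM in femur libraries S13, S15 and S18, and 46.4, 44.4 and 65.2 CPM in mandible libraries S16, S19 and S23. The highest mandible library was below the lowest femur library. The log2 fold change was -1.71 ± 0.30 (edgeR's quasi-likelihood test, adjusted p = 0.006311). It was between -1.44 and -1.96 with any 1 library left out, and -1.96 without mandible library S23, the library with Xist.

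Cox7a2, the widely expressed form of a small membrane subunit where complex IV can pair, was at 61.8, 39.5 and 59.6 CPM in the femur against 14.4, 21.7 and 28.8 CPM in the mandible. The groups were apart, and the log2 fold change was -1.31 ± 0.33 (edgeR adjusted p = 0.04248). Cox5b, a zinc-binding subunit on the matrix side, was the member of complex IV with the highest level per kilobase, at 348.2, 158.9 and 253.2 CPM in the femur against 129.3, 121.6 and 115.2 CPM in the mandible. These groups did not overlap either, and the log2 fold change of -1.05 ± 0.31 did not pass edgeR's test (adjusted p = 0.08487) and was -1.03 and called lower by DESeq2 (adjusted p = 0.01319). Its partner on the matrix side, Cox5a, had a log2 fold change of -1.10 ± 0.37 (edgeR adjusted p = 0.134). Cox8a, second per kilobase, was at 73.7 ± 29.0 CPM in the femur against 55.9 ± 15 CPM in the mandible (SD, n = 3 each), with overlapping groups and a log2 fold change of -0.40 ± 0.35 (edgeR adjusted p = 0.6795).

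The other widely expressed small subunits of complex IV were lower in value without passing edgeR's test, and DESeq2 called 1 of them, Cox6c, lower (log2 fold change -1.35, DESeq2 adjusted p = 0.0216). Cox6c, Cox7c and Cox6b1 had groups that did not overlap and log2 fold changes of -1.39, -1.08 and -0.91. Cox6a1 had overlapping groups and a log2 fold change of -0.74. Cox7a2l, a relative of Cox7a2 that joins complexes III and IV into a supercomplex, was at 87.8 ± 28.8 CPM in the femur against 76.1 ± 4.73 CPM in the mandible, with a log2 fold change of -0.20 ± 0.29 (edgeR adjusted p = 0.8307). It was the tested member of complex IV nearest to 0. Cox6c2, which GENCODE annotates as a processed pseudogene and whose sequence can share reads with Cox6c, had 0.572 to 2.71 CPM in the mandible and 5.47 to 7.11 CPM in the femur and did not pass (log2 fold change -1.63 ± 0.77).

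In complex V 17 of 18 members were tested and 4 fell by edgeR. The median log2 fold change was -0.91, and values are given by the place of a subunit in the enzyme. The 5 small membrane subunits, which lie around the proton channel and join the enzymes in rows, had a median of -1.26, and in 5 of 5 every mandible library was below the femur libraries, against 11.5% of all tested genes. The 3 genes of the c ring had a median of -1.10, the 4 tested genes of the peripheral stalk -0.83, and the 5 genes of F1, the head and central stalk where ATP is made, -0.33. Within F1 the values were ordered as 0.01 for Atp5a1 (subunit alpha), -0.27 for Atp5b (the catalytic subunit beta), -0.33 for Atp5d (delta), -0.81 for Atp5c1 (gamma) and -1.35 for Atp5e (epsilon), on the log2 scale. No test was made between these places or between the 3 complexes.

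Atp5k, subunit e, had the largest fall of complex V. It was at 125.2, 74.0 and 74.3 CPM in the femur against 37.0, 20.0 and 35.7 CPM in the mandible, with a log2 fold change of -1.56 ± 0.33 (edgeR adjusted p = 0.01763). Every mandible library was below the femur libraries. Atp5mpl, a small proteolipid of the membrane part, was at 239.2, 177.6 and 174.9 CPM in the femur against 62.6, 64.7 and 101.1 CPM in the mandible, with a log2 fold change of -1.37 ± 0.29 (edgeR adjusted p = 0.01734). Its groups were apart as well. Atp5e was at 107.5, 79.1 and 85.6 CPM in the femur against 36.1, 24.8 and 45.8 CPM in the mandible, with a log2 fold change of -1.35 ± 0.29 (edgeR adjusted p = 0.01938). Its level in the mandible never reached the lowest femur value. Atp5g3, which encodes the c subunit, was at 87.5, 70.4 and 93.1 CPM in the femur against 26.1, 46.5 and 41.8 CPM in the mandible, with a log2 fold change of -1.13 ± 0.28 (edgeR adjusted p = 0.04253). Here too the groups did not overlap. Of the other small membrane subunits, Atp5md, Atp5l (subunit g) and Atp5j2 (subunit f) had log2 fold changes of -1.26, -0.97 and -0.75, and of the peripheral stalk, which holds the head still, Atp5o, Atp5j and Atp5pb had -1.01, -0.76 and -0.63. None of these 6 passed edgeR's test after adjustment.

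The values of the large F1 subunits alpha and beta lay near 0. Atp5a1 was the highest member of complex V per kilobase, at 580.4, 332.2 and 685.1 CPM in the femur against 587.3, 626.9 and 392.8 CPM in the mandible. These groups covered the same range, and the log2 fold change was 0.01 ± 0.34 (edgeR adjusted p = 0.9946), a value that turned negative under other filters, under both length corrections, and without S15, S16 or S19. Atp5b was at 402.6 ± 150.2 CPM in the femur against 334.9 ± 71.5 CPM in the mandible (log2 fold change -0.27 ± 0.35). Atp5h, subunit d of the peripheral stalk and second per kilobase, was at 280.1 ± 103.8 and 148.7 ± 12.7 CPM with groups that did not overlap, and its log2 fold change of -0.91 ± 0.32 did not pass (edgeR adjusted p = 0.1511).

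Ratios of counts within a library do not depend on the scaling between libraries, and a few pairs were chosen after their values were seen. For every 100 counts of Atp5a1 there were 21.6, 22.3 and 10.8 counts of Atp5k in femur libraries S13, S15 and S18, and 6.30, 3.19 and 9.09 counts in mandible libraries S16, S19 and S23. The groups were apart, with S18 and S23 nearest to each other. For every 100 counts of Atp5a1 there were 85.9, 69.1 and 70.0 counts of Atp5b in the femur and 67.4, 56.3 and 65.2 counts in the mandible, groups that were apart by a narrow margin. For every 100 counts of Cox7a2l there were 241.6, 264 and 119.8 counts of Cox7b in the femur and 57, 59.6 and 90.1 counts in the mandible. For every 100 counts of Uqcrc1 there were 24.6, 22.4 and 16.2 counts of Uqcr10 in the femur and 12.0, 7.88 and 18.1 counts in the mandible, where library S23 lay within the femur range. Uqcrq, also per 100 counts of Uqcrc1, was at 66.8, 101.2 and 71.0 in the femur and 30.1, 38.2 and 74.8 in the mandible, again with overlap through S23. Atp5e, per 100 counts of Atp5a1, was at 18.5, 23.8 and 12.5 in the femur and 6.15, 3.96 and 11.7 in the mandible, groups that were apart by a narrow margin.

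The members that fell had coding transcripts from 366 bases (Atp5mpl) to 1001 bases (Cox7b), on both sides of the members' median of 560.5 bases. Over all genes fold change followed transcript length. Ordered by the length of the coding transcript in GENCODE M21 (the table's length where a gene has none), the shortest decile of tested genes, of 11 to 669 bases, had a median log2 fold change of -0.69, and 6.5% of its genes were called lower. It held 23 of the 39 tested members. The next decile, of 670 to 1170 bases, held 10 members and had a median of -0.42 with 2.54% called lower, while the longest decile, with 0 members, had a median of 0.29. Of the 39 tested members, 31 were below the median of their own decile, and the other 8 were Atp5a1, Atp5d, Atp5g1, Cox6a2, Cox6b2, Cox7a1, Cox7a2l and Cox8a. The 5 supernumerary subunits of complex III had a median coding transcript of 445 bases and the 3 core subunits 1653 bases, and in complex V the small membrane subunits had 371 bases and the F1 subunits 1166 bases. Transcript length therefore moved together with the place of a subunit in its complex, and the parts of length and place cannot be told apart in these members.

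When the trend of log2 CPM on length was removed in each library by a loess curve, on the length in the table, edgeR called 0 members lower (10 at an unadjusted p under 0.05) and 2 higher, and the medians were -0.14 for complex III, -0.09 for complex IV and -0.86 for complex V, with -0.17 over all tested genes. The members that had fallen were then at -1.18 for Cox7b, -0.64 for Cox7a2, -0.48 for Atp5k, -0.86 for Atp5mpl, -1.07 for Atp5e and -1.05 for Atp5g3 (edgeR adjusted p from 0.1265 to 0.6449). The table's length is that of all annotated exons of a gene laid together, and for the members it was 1 to 11.8 times as long as the coding transcript, with a median of 1.95 times. Atp5l had 6443 bases in the table and a coding transcript of 544 bases. With the coding transcript in place of the table's length, a choice made after the data were seen, the medians were 0.07 for complex III, -0.11 for complex IV and -0.18 for complex V, with -0.13 over all tested genes, and edgeR called 0 members lower (1 at an unadjusted p under 0.05) and 2 higher. DESeq2 and limma-voom were not run with a length correction. Under this correction Cox7b had the most negative value of the members that had fallen, -1.20 (edgeR adjusted p = 0.1186), while Atp5k was at -0.27, Atp5e at -0.18, Atp5mpl at -0.19, Atp5g3 at -0.44 and Cox7a2 at -0.54. The members that were called lower on the counts were thus not called under either length correction.

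**Figure D3:**
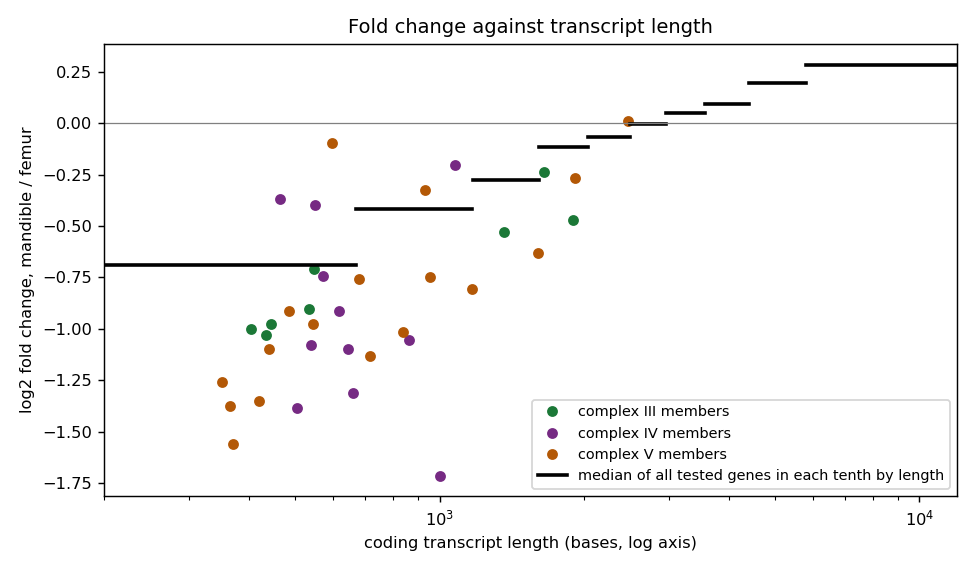
Log2 fold change of mandible over femur (y axis) against the length of the coding transcript in bases (x axis, log scale) for 36 tested members, without Cox6a2 and Cox7a1, which lie above the plotted range, and without Cox6c2, which has no coding transcript. Black bars are medians over all tested genes in each decile by length, the first and the last drawn in part, and they rise from -0.69 in the shortest to 0.29 in the longest decile, with most members below their decile's bar.

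The heart and muscle forms of complex IV stood apart from all other members. Cox6a2 and Cox7a1 replace Cox6a1 and Cox7a2 in the enzyme of heart and skeletal muscle, and Cox8b replaces Cox8a there and in brown fat. Their genes lie on chromosome 7 (GRCm38, GENCODE M21), Cox6a2 at chr7:128205435-128206387 on the minus strand, Cox7a1 at chr7:30184144-30186078 on the plus strand and Cox8b at chr7:140898945-140900446 on the minus strand. The promoters of Cox7a1 and Cox8b are shown beside those of their widely expressed relatives Cox7a2 and Cox8a, since the share of the muscle form in these families differed between the sites, from RefSeq on GRCm38.p6, 250 bases before and 50 after the start of the transcript. Capitals mark the matches to 6 motifs searched on both strands: NRF1 (GCATGCGC), ETS (CCGGAAG), YY1 (AAGATGGC), MEF2 (its consensus), the E-box (CANNTG) and the TATA box (TATAAA).
Cox7a1 (chr7:30183921-30184220, plus strand): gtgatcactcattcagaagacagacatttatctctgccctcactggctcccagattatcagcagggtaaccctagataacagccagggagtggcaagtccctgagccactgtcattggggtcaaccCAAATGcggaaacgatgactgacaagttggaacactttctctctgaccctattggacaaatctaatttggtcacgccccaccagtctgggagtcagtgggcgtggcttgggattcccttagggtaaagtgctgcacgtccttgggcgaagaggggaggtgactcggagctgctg
Cox7a2 (chr9:79759804-79760103, minus strand): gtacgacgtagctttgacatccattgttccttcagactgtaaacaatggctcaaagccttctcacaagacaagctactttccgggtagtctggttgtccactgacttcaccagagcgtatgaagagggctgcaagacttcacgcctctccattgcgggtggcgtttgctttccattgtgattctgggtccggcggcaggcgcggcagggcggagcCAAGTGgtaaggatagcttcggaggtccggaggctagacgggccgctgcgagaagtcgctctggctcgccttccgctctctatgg
Cox8b (chr7:140900397-140900696, minus strand): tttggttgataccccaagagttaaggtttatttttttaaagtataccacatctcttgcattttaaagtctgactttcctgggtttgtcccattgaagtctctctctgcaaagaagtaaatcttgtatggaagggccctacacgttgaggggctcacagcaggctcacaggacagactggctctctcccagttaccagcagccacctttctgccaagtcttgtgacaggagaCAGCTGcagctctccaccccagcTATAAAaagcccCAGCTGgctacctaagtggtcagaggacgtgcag
Cox8a (chr19:7217567-7217866, minus strand): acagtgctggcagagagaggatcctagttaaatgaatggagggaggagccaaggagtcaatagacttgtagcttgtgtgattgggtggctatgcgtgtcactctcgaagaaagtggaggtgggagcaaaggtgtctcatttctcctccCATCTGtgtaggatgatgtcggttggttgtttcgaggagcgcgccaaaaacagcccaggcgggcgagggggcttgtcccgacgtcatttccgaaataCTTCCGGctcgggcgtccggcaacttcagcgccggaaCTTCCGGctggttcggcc

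Cox7a1 and Cox7a2 each held 1 E-box in this window and no other of these motifs. Cox8b held 2 E-boxes and a TATA box, and Cox8a held 2 ETS matches and 1 E-box. Among all 27025 promoters of the same length, 72.1% held an E-box, 14.2% a TATA box, 9.12% an ETS match and 3.26% a MEF2 match. A match is a match of letters and no evidence of binding.

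Cox6a2 had 0, 2 and 4 counts in femur libraries S13, S15 and S18, and 114, 72 and 213 counts in mandible libraries S16, S19 and S23. Cox7a1 had 0, 2 and 3 counts in the femur and 60, 37 and 135 counts in the mandible. Both genes were near 0 in every femur library and clearly present in every mandible library, most in S23. The log2 fold changes were 6.17 ± 1.14 for Cox6a2 and 5.65 ± 1.39 for Cox7a1 (edgeR's quasi-likelihood test, adjusted p = 0.008828 and 0.03894). As a ratio of pooled counts per scaled library size, Cox6a2 was 71.0 times as high in the mandible (95% exact interval 32.3 to 194.5, for counting error only) and Cox7a1 49.5 times as high (20.9 to 153.9). Without mandible library S23 neither passed (edgeR adjusted p = 0.07671 for Cox6a2 and 0.2487 for Cox7a1). Cox6a2 kept its call without any other library, Cox7a1 only without S16 (edgeR adjusted p = 0.04772), and limma-voom called neither (adjusted p = 0.09925 and 0.142).

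Cox8b had no count in any femur library and 4, 54 and 364 counts in S16, S19 and S23. It did not pass the filter on low counts, since it was low in all but a pair of libraries, and so had no main test. Up to 3 counts are allowed by a count of 0, or 0.133 to 0.166 CPM in the femur libraries, and against that limit in each library Cox8b was at least 54.0-fold higher in the mandible, or at least 9.50-fold without S23, a choice made after the data were seen. The 4 counts of S16 were near that limit. The mandible libraries differed widely from each other, and S23 held most of the counts. When genes were instead kept at a mean of 1 CPM, Cox8b was called higher (edgeR adjusted p = 0.03664), and likewise with no filter (5.087e-10). With 1 library left out it passed the filter in 4 cases, and edgeR called it higher without S15 or S16 (adjusted p = 0.03891 and 0.00805) but not without S13 or S18 (adjusted p = 0.08074 and 0.0817).

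Muscle marker genes moved with these forms. All 10 skeletal muscle markers were called higher in the mandible by edgeR and DESeq2 (9 by limma-voom, without Myh4), where 3.88% of all tested genes were called higher by edgeR, and their summed level was 12.2, 23.4 and 3.80 CPM in S13, S15 and S18, and 3473, 1546 and 5263 CPM in S16, S19 and S23. Cox6a2 and Cox7a1 followed the same order over the mandible libraries, S23 above S16 above S19. For every 1000 counts on the 10 muscle markers there were 1.64, 2.21 and 2.32 counts of Cox6a2 and 0.864, 1.14 and 1.47 counts of Cox7a1 in S16, S19 and S23, while Cox8b went from 0.0576 through 1.66 to 3.96. Cox8b thus did not keep a like ratio to the muscle markers across the mandible libraries. In femur libraries S13, S15 and S18 the ratios were 0, 3.945 and 46.51 for Cox6a2 and 0, 3.945 and 34.88 for Cox7a1. These femur ratios rest on at most 4 counts of either gene and were unlike those of the mandible. Among brown fat markers, Ucp1 had 12 counts in S15, 1 in S19 and 0 in the other libraries, and Cidea had 23 counts in S23 and 0 in the others. Of the further fat cell markers, Adipoq had 244, 99 and 209 counts in the femur and 24, 48 and 33 counts in the mandible. Its log2 fold change was -2.34 (edgeR adjusted p = 0.06938), and DESeq2 called it lower. Plin1 had 0, 10 and 11 counts in the femur and 0 in every mandible library. The part of muscle or fat RNA in the values of Cox6a2, Cox7a1 and Cox8b was not tested. Cox6a2 also overlaps the exons of Itgad on the opposite strand, and whether strand was used in counting is not given in the sources used here. Itgad had 63, 54 and 0 counts in the femur and 0, 1 and 51 counts in the mandible. Whether reads were shared between Itgad and Cox6a2 was not tested.

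**Figure D4:**
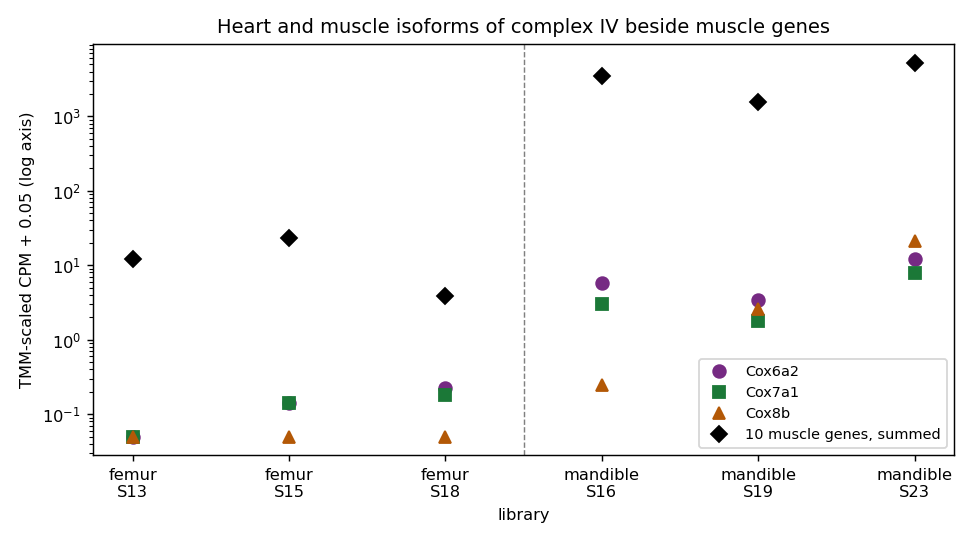
TMM-scaled CPM plus 0.05 (y axis, log scale) of Cox6a2, Cox7a1 and Cox8b and of the 10 summed muscle markers in each of the 6 libraries (x axis). All series are higher in the 3 mandible libraries than in the 3 femur libraries, and Cox8b spans the widest range within the mandible, from 0.20 to 20.8 CPM before the added 0.05.

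Shares of each form within its family were then computed in every library from counts per kilobase of the table's length. Cox6a2 took 0, 0.40 and 0.346% of the Cox6a family in the femur and 19, 15.3 and 39.9% in the mandible, a mean of 0.249 ± 0.217% against 24.7 ± 13.3% (SD, n = 3 each). Cox7a1 took 0 to 0.215% of the Cox7a family in the femur and 7.39, 4.28 and 15.4% in the mandible. In that family Cox7a2 went from 49.4 ± 3.67% to 27.5 ± 6.58%, with no overlap, and Cox7a2l from 50.5 ± 3.66% to 63.5 ± 10.4%, with overlap. Cox8b took 0% in the femur and 0.556, 6.15 and 47.9% in the mandible, the remainder being Cox8a. The c subunit is encoded by Atp5g1, Atp5g2 and Atp5g3, which give the same mature protein behind different import sequences. Atp5g1 took 8.29, 6.69 and 8.81% of this family in the femur and 14.5, 12.0 and 18.6% in the mandible, with no overlap. Atp5g3, the main form in every library, took 78.7 ± 4.85 and 72.8 ± 6.41%, and Atp5g2 took 13.3 ± 4.53 and 12.2 ± 3.69%, both with overlap. The exact two-sided permutation test over 3 and 3 libraries gave its smallest possible p of 0.1 for each share without overlap (adjusted p = 0.2 over 14 shares), so this design could not pass a threshold of 0.05 for any share.

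**Figure D5:**
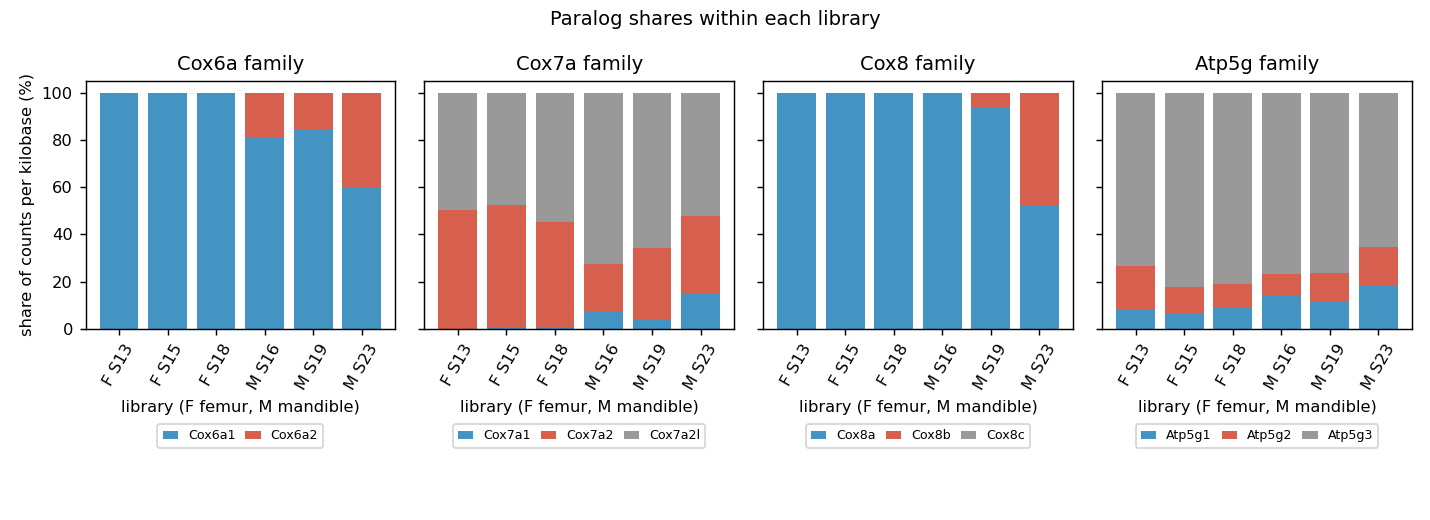
Share of counts per kilobase (y axis, percent, stacked to 100) of each form within the Cox6a, Cox7a, Cox8 and Atp5g families in the 3 femur (F) and 3 mandible (M) libraries (x axis). Cox6a2, Cox7a1 and Cox8b take at most 0.40% of their families in the femur libraries and reach 39.9, 15.4 and 47.9% in mandible library S23.

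Forms known from the testis were at 0 or low in both groups. Cox8c had no count in any library, which allows up to 0.133 to 0.172 CPM. Cox7b2 had counts in femur library S15 alone, at 0.599 CPM, and Cox6b2 took 3.68 ± 1.07% of the Cox6b family in the femur and 5.03 ± 1.58% in the mandible, with overlapping groups. A second gene entry named Atp5o, which overlaps the first on the same strand, had no count.

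Atp5k is given as the example of a fallen subunit whose promoter held matches to both NRF1 and ETS, factors known for driving nuclear genes of mitochondria. The sequence is from RefSeq on GRCm38.p6, with matches to the same 6 motifs in capitals, and the NRF1 letters, GCATGCGC, are found there on both strands as overlapping matches.
Atp5k (chr5:108434350-108434649, minus strand): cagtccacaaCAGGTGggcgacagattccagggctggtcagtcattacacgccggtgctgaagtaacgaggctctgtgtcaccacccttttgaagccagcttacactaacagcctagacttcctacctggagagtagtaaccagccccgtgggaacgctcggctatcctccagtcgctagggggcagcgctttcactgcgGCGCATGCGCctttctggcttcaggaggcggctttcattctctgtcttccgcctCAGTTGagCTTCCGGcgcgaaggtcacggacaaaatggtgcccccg

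Of the members, 33 had a promoter in the RefSeq table. Cox6a2 was not among them, so its promoter was not searched. The NRF1 letters were found in 18.2% of these and in 2.8% of all 27025 promoters, the ETS letters in 30.3% and 9.12%, the YY1 letters in 6.06% and 2.88%, the MEF2 consensus in 0% and 3.26%, the E-box in 72.7% and 72.1%, and the TATA box in 12.1% and 14.2%. The 6 members with the NRF1 letters were Atp5g2, Atp5k, Atp5l, Cox6a1, Uqcr11 and Uqcrc1, of which Atp5k alone was called, and their log2 fold changes ran from -1.56 for Atp5k to -0.24 for Uqcrc1. Neither Nrf1 nor Gabpa passed the test. Nrf1 had a log2 fold change of -0.04 ± 0.27 and Gabpa, an ETS factor, 0.02 ± 0.26 (edgeR adjusted p = 0.9744 and 0.9856). Exons of Gabpa overlap those of Atp5j on the opposite strand. Over 9 regulators of mitochondrial genes edgeR called 0 (1 was higher at an unadjusted p under 0.05, and DESeq2 called Ppargc1a higher), with a median of -0.04.

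Other genes of the same enzymes were compared from lists. Subunits outside the name rule gave 0 of 5 calls by edgeR (3 were lower at an unadjusted p under 0.05, and DESeq2 and limma-voom called Atpif1 lower), with a log2 fold change of -0.41 for Cyc1 (cytochrome c1 of complex III), -0.99 for Cox4i1 (the largest nuclear subunit of complex IV), -0.98 for Ndufa4 (a further subunit of complex IV), 0.58 for Cox4i2 (the lung form of Cox4i1) and -1.51 for Atpif1 (the inhibitor of complex V). The 6 mitochondrially encoded subunits of complexes III, IV and V gave 0 calls by edgeR (1 was higher at an unadjusted p under 0.05, and DESeq2 called mt-Atp6 higher) and a median of 0.05, beside -0.91 for the nuclear members. With the length in the table corrected for, their median was 0.89, and edgeR called mt-Atp6 higher (log2 fold change 2.21, adjusted p = 0.01548). The most abundant of them, mt-Co1, was at 2418 ± 387.3 CPM in the femur against 2704 ± 303.9 CPM in the mandible, a log2 fold change of 0.16 ± 0.34, and mt-Cytb of complex III was at 1020 ± 238.1 and 1574 ± 430.6 CPM, with 0.63 ± 0.35. The difference between nuclear and mitochondrial subunits was not tested. Of the assembly factors, edgeR called 0 of 6 for complex III, 1 of 21 for complex IV and 0 of 4 for complex V (3, 6 and 2 were lower at an unadjusted p under 0.05, and DESeq2 called 0, 4 and 0 lower). Pet100, an assembly factor of complex IV, fell from 95.2 ± 22.3 to 34.5 ± 4.35 CPM, a log2 fold change of -1.46 ± 0.27 (edgeR's quasi-likelihood test, adjusted p = 0.008046). Complex II, whose 4 subunits are all nuclear, gave 0 calls by edgeR, DESeq2 or limma-voom (1 was lower at an unadjusted p under 0.05) and a median of -0.24, with Sdha, its catalytic subunit, at 0.34 ± 0.27. Over 8 genes of mitochondrial mass edgeR called 0 (2 were lower and 1 higher at an unadjusted p under 0.05, and DESeq2 and limma-voom called Slc25a4 higher), and the median was -0.17.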

How the data were processed

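Per the labels, total RNA of marrow monocytes was sequenced, and the deposited table holds counts of reads on each gene, not normalized. The authors trimmed the reads (Trimmomatic) and mapped and counted them with HISAT2 2.1.0 and featureCounts (the submitters' processing notes); strand setting and treatment of reads with several positions are not given in the sources used here. The notes name GRCm38, but only 2 of 43 member intervals in the table lay inside the GENCODE M21 gene, so positions came from M21 by Ensembl identifier; the lengths of all 43 equalled the M21 exon union. Of the members, 14 share exon bases with another gene.

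Counts were analysed in R 4.3.3 with edgeR 4.0.16 (filterByExpr, minimum count 10 and total 15, TMM, quasi-likelihood test, prior count 0.125, Benjamini-Hochberg over 18114 genes, no covariate), and a call needed an adjusted p under 0.05 and at least a 2-fold change. Alternatives were DESeq2 1.42.0, limma-voom (limma 3.58.1), other size factors and filters, a loess correction (span 0.4) on the length in the table or, added after the data were seen, on the coding transcript, and each library left out. The exact permutation test used log2 CPM with a pseudocount of 0.5. Scripts were tested on simulated counts. Members and lists were chosen with earlier results of these data known. Values were printed for called members, the 3 highest per kilobase and the extreme fold changes of each complex, and the paralog families; other members are named for completeness.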

Additional observations from a re-analysis of the deposited data

How the results depend on the processing

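No paired analysis was possible because the labels do not give the animal of any library. The count of members called lower, 6, was 8 by DESeq2, 11 without a filter and 0 under either length correction, and 0 to 16 with 1 library left out; the count of members called higher, 2, was 0 by limma-voom and 0 to 3 with 1 library left out, 0 without mandible library S23. Over all genes, 236 called lower became 457 (DESeq2), 157 (no normalization factors), 571 (no filter), 127 (length in the table), 140 (coding transcript) and 58 to 608 with 1 library left out, and 702 called higher became 1091 by DESeq2 and 376 to 957 with 1 library left out. The median log2 fold change of all tested genes was -0.04, -1.09 without a filter, -0.17 with the length in the table, -0.13 with the coding transcript and -0.12 without S23. The median of complex III was -0.14 under the length in the table and 0.068 under the coding transcript, and -1.01 to -0.55 with 1 library left out; that of complex IV was -0.088, -0.11 and -1.09 to -0.78; that of complex V was -0.18 under the coding transcript and -1.12 to -0.70 with 1 library left out.

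Values that changed sign, none of them called by edgeR on all 6 libraries, were on the log2 scale as follows. Under the length in the table they were 0.042 for Uqcr10, 0.030 for Cox6b1, 0.23 for Cox6a1, 0.60 for Cox8a, 0.36 for Cox6b2, 0.16 for Cox7a2l and -0.078 for Atp5a1. Under the coding transcript they were 0.13 for Uqcr10, 0.080 for Uqcrq, 0.055 for Uqcr11, 0.11 for Uqcrb, 0.28 for Uqcrh, 0.23 for Cox6a1, 0.56 for Cox8a, 0.82 for Cox6b2, 0.25 for Cox7a2l, 0.11 for Atp5h, 0.25 for Atp5d, 0.75 for Atp5g1 and -0.059 for Atp5a1. Atp5g1 was 0.070 without normalization factors and -0.54 to 0.16 with 1 library left out, Atp5a1 was -0.044 without a filter, -0.037 at a mean CPM of 1 and -0.29 to 0.24 with 1 library left out, and Cox7a2l was -0.49 to 0.016 with 1 library left out. The difference in share was 24.5 points for Cox6a2 (16.9 to 29.2 with 1 library left out), 8.88 for Cox7a1 (5.71 to 11.2), 18.2 for Cox8b (3.35 to 27.0), 7.10 for Atp5g1 (5.32 to 8.62), -1.17 for Atp5g2 (-3.09 to 1.43) and -0.30 for Cox7b2 (-0.45 to 0, where S15 held all its counts). The length corrections themselves remove what fold change shares with length. The causes of the other changes were not tested. With 3 libraries a site, and counts under 5 in the femur for Cox6a2 and Cox7a1, their fold changes are imprecise.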

Other observations

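The 12 genes with names ending in -ps that the rule left out together held 0.626 to 0.893% as many counts as the members in a library. Only 3 of them passed the filter on low counts, and none was called by edgeR (quasi-likelihood test, Benjamini-Hochberg adjustment over all tested genes). Cox5b-ps had the most counts, 659, 335 and 470 in femur libraries S13, S15 and S18 and 100, 255 and 243 in mandible libraries S16, S19 and S23, with a log2 fold change of -1.23 (adjusted p = 0.2008). All its mandible libraries were below its femur libraries, as for Cox5b. Atp5pb-ps had 140, 107 and 209 counts in the femur and 142, 96 and 25 counts in the mandible, with overlapping groups. Such genes resemble their parents in sequence, and how reads with several positions were counted is not given in the sources used here.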
